A study of Mus musculus with 6 samples.

Results

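The genes described here are 37 markers of the supporting tissue of the heart: 12 of the epicardium, 19 of fibroblasts and other mesenchyme, and 6 of mural cells, the pericytes and smooth muscle cells that wrap vessels. They were chosen by symbol, and a gene was tested if its mean over the 6 hearts was at least 10. All 37 symbols were in the table, and 36 passed that minimum, of 15556 genes that did so in all. The exception was Bnc2, a zinc finger gene, with values of 2 to 5 in every heart. The series measured poly(A) RNA of whole mouse hearts at an embryonic stage whose day the labels do not give. All hearts are labelled C57BL6/J, and all carry RBPMS flox/flox and RBPMS2 flox/flox, that is, alleles of Rbpms and Rbpms2 that Cre recombinase can delete. The 3 control hearts are littermates labelled aMyHC_Ctrl with no Cre named in their genotype, and the 3 knockout hearts, labelled aMyHC_RBPMS-2, are Cre positive under the alpha-myosin heavy chain promoter. That promoter is active in cardiomyocytes, so the deletion is aimed at muscle cells, and the effects of Cre itself and of the deletion cannot be told apart in this comparison.

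The epicardium is the mesothelial sheet on the outside of the heart. During development some of its cells lose their contacts and move into the wall, a process called epithelial to mesenchymal transition (EMT), and there they give rise to most cardiac fibroblasts and to many pericytes and coronary smooth muscle cells. WT1, TBX18 and TCF21 are the transcription factors by which epicardial cells and their descendants are usually recognised. Keratins and uroplakins are used as markers of the sheet itself, and the receptors PDGFRA and PDGFRB as markers of fibroblasts and mural cells. Which cells of the whole heart the keratin reads came from was not tested.

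Each value is a number of reads that the authors divided by a factor per heart and rounded. Deposited totals were 17861435 to 18439201 per heart, and the gaps between low values put the depth before scaling at an estimated 12960709 to 25837261 reads. Rbpms fell from a mean of 6174 ± 2024 to 1034 ± 158 and Rbpms2 from 1690 ± 319 to 931 ± 64.4 (SD, n = 3 each; log2 fold changes of -2.53, SE 0.22, and -0.84, SE 0.12; limma adjusted p = 0.000325 and 0.00207). Fold changes are differences of log2(value + 1), knockout minus control, and a gene was called when its Benjamini-Hochberg adjusted p in limma over all 15556 genes was under 0.05. The labels number the replicates but do not say whether each is 1 animal or a pool, so p-values measure the spread between these samples, each called a heart here.

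Of the 36 genes tested, 10 rose in the knockout hearts and 0 fell. That is 27.8%, where 8.61% of all genes tested were called higher and 8.56% lower. With an unadjusted p below 0.05 instead, 20 of the 36 were higher and 1 was lower, against 16.1% and 15.5% of all genes tested. The fold change was above 0 in 31 of the 36, and in 50.3% of all genes tested. The 10 were Krt8, Krt18, Bnc1, Tcf21 and Lrrn4 of the 11 epicardial genes tested, Mfap4, Ogn, Prrx1 and Dpt of the 19 mesenchymal genes, and Mcam of the 6 mural genes. In 18 of the 36 genes every knockout heart lay above every control and in 1 below, where 17.5% of all genes tested lay above, 17.9% below and 35.4% in either way. The median log2 fold change was 0.35 in the epicardial, 0.26 in the mesenchymal and 0.29 in the mural genes, against 0.0018 over all genes tested. The changes were uneven within each of these groups: 8 of the 10 called genes were also called without each heart in turn and under the 9 other alternatives tried (3.56% of all genes tested were called higher with all hearts and without each), whereas Tbx18, Zeb1, Gsn and Rgs5 had log2 fold changes between -0.02 and 0.03. Across a whole heart, more cells of a type, more RNA per cell and less RNA from other cells cannot be told apart. The values are scaled per heart and so are relative.

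**Figure D1:**
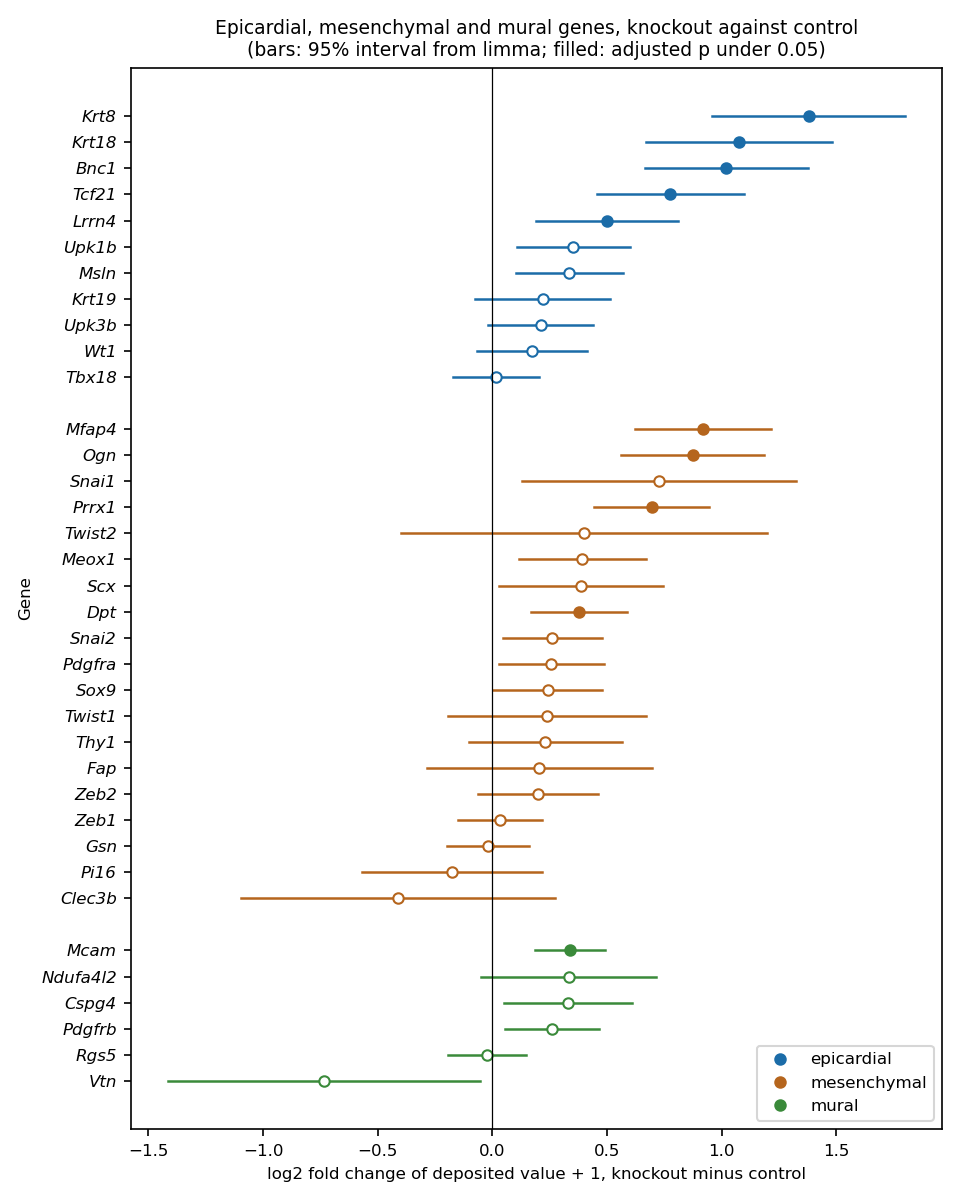
Log2 fold change of each of the 36 genes tested (x axis, knockout minus control, on the scale of the deposited value + 1), with its 95% interval from limma, ordered by size within the epicardial, mesenchymal and mural genes (y axis). Filled points are the 10 genes past an adjusted p of 0.05. Krt8 has the highest value, 1.38, and Vtn the lowest, -0.73.

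The largest change among all 36 genes was in the simple-epithelium keratins. Krt8 (ENSMUSG00000049382) encodes a type II keratin and Krt18 (ENSMUSG00000023043) the type I keratin it pairs with to form filaments. Both lie on mm10 chromosome 15, Krt8 at 101996698 to 102004482 on the minus strand and Krt18 at 102028180 to 102032027 on the plus strand, so that they are transcribed away from each other with 23698 bases between their ends. The 250 bases before the RefSeq start of each gene, and of Bnc1, the epicardial transcription factor gene with the next largest change, are shown 5′ to 3′ on the strand of the gene because these genes rose together. They are RefSeq sequences of build GRCm38.p6, at chr15:102004343-102004592 (minus strand) for Krt8, chr15:102027966-102028215 (plus strand) for Krt18 and chr7:81992300-81992549 (minus strand) for Bnc1. The gene spans above are those of GENCODE, whose starts differ, so that 140 bases of the Krt8 stretch and 36 of the Krt18 stretch, those nearest the RefSeq start, lie inside the gene as GENCODE gives it, and 0 of the Bnc1 stretch do. Capitals mark matches on either strand to CAGGTG, the E-box bound by the SNAIL and ZEB families, and to GGGCGG, the GC box.
Krt8: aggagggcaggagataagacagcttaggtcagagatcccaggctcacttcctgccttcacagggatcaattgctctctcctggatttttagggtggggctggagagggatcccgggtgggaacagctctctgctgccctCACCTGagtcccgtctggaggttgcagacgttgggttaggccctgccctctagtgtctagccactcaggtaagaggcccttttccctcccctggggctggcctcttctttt
Krt18: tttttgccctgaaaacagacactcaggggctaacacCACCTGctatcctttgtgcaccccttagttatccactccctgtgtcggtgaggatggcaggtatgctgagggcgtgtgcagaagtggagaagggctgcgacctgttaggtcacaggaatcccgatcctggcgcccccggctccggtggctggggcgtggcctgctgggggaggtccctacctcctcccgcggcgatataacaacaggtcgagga
Bnc1: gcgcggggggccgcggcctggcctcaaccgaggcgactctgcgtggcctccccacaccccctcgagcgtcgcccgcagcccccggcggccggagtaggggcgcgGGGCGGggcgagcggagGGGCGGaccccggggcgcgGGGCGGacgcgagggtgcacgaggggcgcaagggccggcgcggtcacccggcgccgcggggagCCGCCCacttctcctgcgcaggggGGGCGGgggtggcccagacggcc
The Krt8 and Krt18 stretches each held 1 E-box, beginning 111 and 214 bases before the RefSeq start, of which the former lies inside the GENCODE gene. An E-box is held by 17.2% of 32851 RefSeq promoter stretches of the same length. Neither keratin stretch held a GC box. Bnc1 held 5 GC boxes and no E-box, and 32.7% of the promoter stretches hold a GC box. The TATA box as TATAAA, the motif CCAAT bound by NF-Y and the AP-1 site as TGANTCA, which 12.4%, 33.8% and 6.75% of promoter stretches hold, were searched on both strands too and were found in none of the 3, and no matches to different motifs overlapped. The GC content was 58.0%, 60.4% and 83.6%, against a median of 52.4% over all promoters. The motifs were chosen with these sequences in view, and a match is not evidence that a factor binds.

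Krt8 had deposited values of 71, 119 and 100 in the controls, here as throughout in the order of replicates 1 to 3, and of 266, 211 and 270 in the knockouts. Every knockout lay well above every control, and the rise was 2.60-fold, a log2 value of 1.38 (SE 0.19, limma adjusted p = 0.00158). Krt18 followed the same order, at 101, 170 and 121 in control and 282, 236 and 296 in knockout hearts, a change of 1.08 (SE 0.18, limma adjusted p = 0.00401). Control replicate 2 was the highest control and knockout replicate 2 the lowest knockout for both genes. The number of Krt8 reads per Krt18 read was 0.703, 0.7 and 0.826 in control hearts, against 0.943, 0.894 and 0.912 in knockout hearts, so it was higher in each knockout heart. Krt19, a type I keratin of simple epithelia and the third keratin among the epicardial genes, was at 177, 238 and 242 in control and 260, 248 and 250 in knockout hearts. Its groups did not overlap either, but the distance was small beside the spread of the controls (0.22, 95% interval -0.08 to 0.51, limma adjusted p = 0.29). Reads of Krt8 per read of Krt19 were 0.401, 0.5 and 0.413 in control and 1.02, 0.851 and 1.08 in knockout hearts. These ratios were chosen after the values were seen and have no test.

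Among the 47 keratin genes numbered Krt in the table, 9 had a mean of at least 10, a set formed after the values were seen. Besides Krt8 and Krt18, Krt80, a type II keratin, and Krt222, a short keratin-like gene, rose, by 0.64 (SE 0.19, limma adjusted p = 0.0449) and 0.64 (SE 0.13, limma adjusted p = 0.00881). The Krt80 call was lost without control replicate 1 or 3 and without knockout replicate 2 or 3 (0.45 to 0.62), with no filter and with embryo sex as a term. Krt7, another type II keratin of mesothelium on the same chromosome, was at 106, 119 and 141 in control and 125, 113 and 127 in knockout hearts, a change of 0.0040 (SE 0.14). Of the 6 genes tested within 100 kb of Krt8 and Krt18, these 2 were the ones called. Their neighbours Eif4b, a translation factor, and Spryd3 had changes of 0.05 (SE 0.07) and 0.13 (SE 0.12), and Tns2, a tensin of cell adhesions, 0.34 (SE 0.11, limma adjusted p = 0.0549). The keratin gene Krt79, also in this window, was low, at 7 to 14 in every heart (0.12, SE 0.34).

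Of the 4 epicardial transcription factors tested, 2 rose, where 8.61% of all genes tested were called higher. Bnc1 (basonuclin 1, a zinc finger protein of mesothelium and other epithelia) was at 52, 65 and 55 in control and 109, 110 and 133 in knockout hearts, so that the lowest knockout was well above the highest control. The log2 rise was 1.02 (SE 0.16, limma adjusted p = 0.0028). Tcf21, the factor that marks epicardial cells on the way to fibroblasts and is kept by fibroblasts, was at 626, 483 and 670 in control and 831, 1155 and 1060 in knockout hearts, a change of 0.78 (SE 0.14, limma adjusted p = 0.00603). Knockout replicate 1 was the lowest of the knockouts and still above all controls. In contrast, Wt1, the Wilms tumour factor of the epicardium, was at 431, 416 and 508 in control and 451, 535 and 539 in knockout hearts, and the groups overlapped (0.17, 95% interval -0.07 to 0.41, limma adjusted p = 0.31). Tbx18, a T-box factor of the epicardium and of some mural cells, was at 1452, 1494 and 1276 against 1368, 1351 and 1550 (0.02, 95% interval -0.17 to 0.20, limma adjusted p = 0.92). The upper bound for Tbx18 lay below the fold change of Tcf21. Reads of Tcf21 per read of Wt1 were 1.45, 1.16 and 1.32 in control and 1.84, 2.16 and 1.97 in knockout hearts, and reads of Bnc1 per read of Wt1 were 0.121, 0.156 and 0.108 against 0.242, 0.206 and 0.247. Both ratios were higher in every knockout, and they too were chosen after the values were seen.

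Of the 4 mesothelial surface genes, 1 rose, where 8.61% of all genes tested were called higher. Lrrn4, a leucine-rich repeat membrane protein of mesothelial cells, was at 133, 169 and 134 in control and 182, 226 and 208 in knockout hearts, with no overlap, and rose by 0.50 (SE 0.14, limma adjusted p = 0.0347). That call was lost without control replicate 1 or 3 and without knockout replicate 2 or 3, where the change was 0.43 to 0.49, and also with no filter (limma adjusted p = 0.069) and with embryo sex as a term (0.0692). Msln, which encodes the surface protein mesothelin, was at 615, 698 and 834 in control and 892, 882 and 914 in knockout hearts (0.33, SE 0.10, limma adjusted p = 0.0528). The uroplakin gene Upk1b was at 161, 147 and 145 in control and 200, 191 and 188 in knockout hearts (0.35, SE 0.11, limma adjusted p = 0.0535). In both genes all knockouts lay above all controls, yet neither passed the threshold. Both were called with a minimum mean of 50, with equal totals and with limma-voom, and Msln also with quantile normalization, with the replicate block and without control replicate 3 (0.45). Upk3b, the other uroplakin, was at 534, 548 and 682 against 646, 673 and 712, and its groups overlapped (0.21, 95% interval -0.02 to 0.44), but it was called without control replicate 3 (0.32). Per kilobase of exon, the mean control level was highest for Tbx18, at 298, then Tcf21 at 252, Msln at 234 and Upk3b at 167. Of the 3 genes with the largest changes, Krt18 was in the middle of the 11 at 90.9, and Krt8 and Bnc1 were lower, at 49.4 and 12.3 per kilobase.

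**Figure D2:**
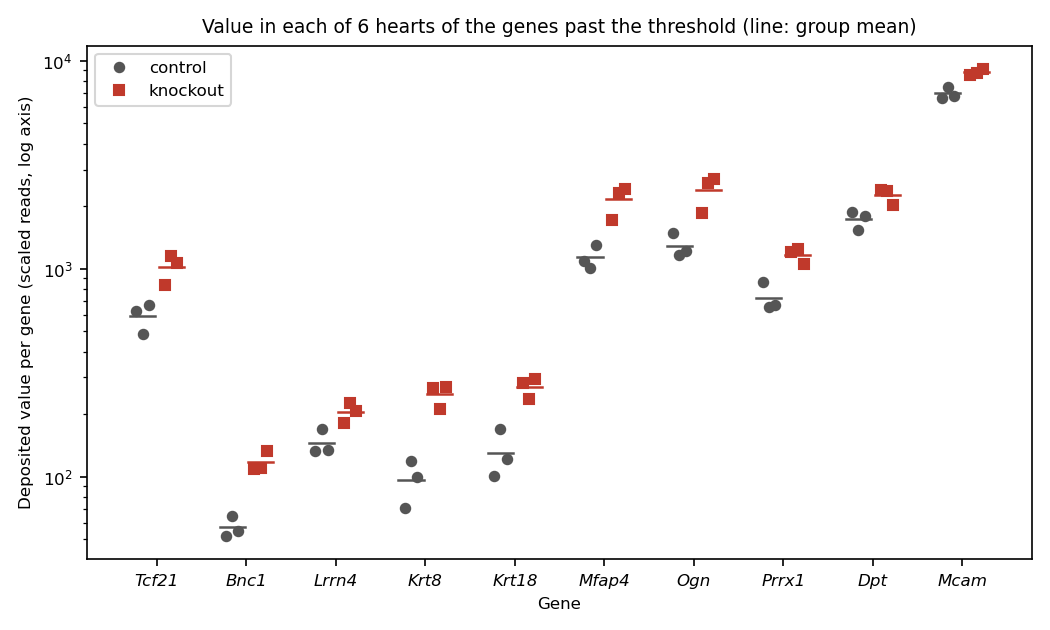
Deposited value (y axis, log scale) in each of the 6 hearts for the 10 genes past the threshold (x axis), controls as circles and knockouts as squares, with a line at each group mean. In all 10 genes the 3 knockouts lie above the 3 controls.

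In the mesenchyme, the 3 matrix genes listed all rose, where 8.61% of all genes tested were called higher. Other matrix genes are among the further fibroblast genes below, and not all of them passed. Mfap4, a glycoprotein bound to elastic microfibrils, was at 1095, 1003 and 1306 in control and 1723, 2322 and 2419 in knockout hearts, a log2 rise of 0.92 (SE 0.13, limma adjusted p = 0.00204). Ogn, the small leucine-rich proteoglycan osteoglycin, was at 1482, 1162 and 1221 against 1852, 2587 and 2702, a change of 0.87 (SE 0.14, limma adjusted p = 0.0031). In both genes knockout replicate 1 held the lowest knockout value. Dpt, dermatopontin, a protein that binds collagen fibrils, was at 1883, 1528 and 1800 against 2379, 2360 and 2028, without overlap but with a smaller change of 0.38 (SE 0.09, limma adjusted p = 0.0221). The Dpt call was lost without control replicate 2, where the change was 0.29, and without knockout replicate 1 or 2, where it was 0.34 in each case, and also with no filter (limma adjusted p = 0.0568).

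Prrx1, a homeobox factor of embryonic mesenchyme, was the lineage factor that passed. It was at 859, 652 and 666 in control and 1209, 1239 and 1058 in knockout hearts, a change of 0.69 (SE 0.11, limma adjusted p = 0.00314). The other 3 lineage factors had positive changes that did not pass. Meox1, a homeobox factor of somites and activated fibroblasts, was at 649, 511 and 728 against 833, 881 and 745 (0.39, SE 0.12, limma adjusted p = 0.0565), and it was called under 5 of the 9 other alternatives and without control replicate 3 (0.50). Scx, the tendon and valve factor scleraxis, was at 91, 119 and 121 against 127, 140 and 166 (0.39, SE 0.16, limma adjusted p = 0.128). Neither gene had a knockout at or below a control. Sox9, a factor of cartilage and valve mesenchyme, was at 382, 333 and 415 against 406, 455 and 473 with 1 knockout inside the range of the controls (0.24, SE 0.11, limma adjusted p = 0.151).

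None of the 3 receptor and surface markers of fibroblasts passed in limma, and 1 was higher at an unadjusted p under 0.05. Pdgfra, the receptor that defines cardiac fibroblasts, was at 1183, 895 and 1044 in control and 1184, 1346 and 1185 in knockout hearts. Control replicate 1 nearly reached knockout replicates 1 and 3, and Pdgfra did not pass (0.26, 95% interval 0.03 to 0.49, limma adjusted p = 0.117). Without control replicate 1 Pdgfra was called, with a change of 0.35, and so it was with embryo sex as a term, with 0.34. Thy1, a surface glycoprotein of fibroblasts and neurons, was at 153, 165 and 216 against 185, 206 and 232, and Fap, a surface protease of activated fibroblasts, at 119, 69 and 92 against 105, 85 and 130. Both overlapped between groups, at limma adjusted p = 0.327 and 0.573. Reads of Mfap4 per read of Pdgfra were 0.926, 1.12 and 1.25 in control and 1.45, 1.73 and 2.04 in knockout hearts. For Ogn they were 1.25, 1.30 and 1.17 against 1.56, 1.92 and 2.28. These ratios too were chosen after the values were seen and have no test.

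None of the 3 genes grouped here as markers of adult adventitial fibroblasts passed in limma. None did at an unadjusted p under 0.05, and all 3 estimates were negative. Clec3b, which encodes tetranectin, was at 69, 56 and 98 in control and 75, 33 and 64 in knockout hearts (-0.41, 95% interval -1.10 to 0.27). Pi16, a secreted peptidase inhibitor gene, was at 75, 72 and 104 against 78, 71 and 70 (-0.18, 95% interval -0.57 to 0.22). Gsn, the actin-severing protein gelsolin, had the highest level per kilobase of all 36 genes in the controls, at 2462, against 74.9 for Clec3b and 13.1 for Pi16. Values of Gsn were 6940, 8277 and 8102 against 7261, 7593 and 8112. Its interval of -0.20 to 0.16 on the log2 scale was among the narrowest here, and the sign of its estimate of -0.02 turned with equal totals, with limma-voom, and without control replicate 2 or 3 or knockout replicate 1. All 3 overlapped between groups.

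None of the 6 EMT transcription factors passed in limma, although 2 reached an unadjusted p under 0.05. These factors bind E-boxes and repress epithelial genes. Snai1 was at 98, 98 and 161 in control and 125, 231 and 244 in knockout hearts, so that knockout replicate 1 fell inside the range of the controls while the other knockouts lay far above it (0.72, SE 0.27, limma adjusted p = 0.0933). Without knockout replicate 1 the change was 1.03 and passed. Its relative Snai2 was steadier, at 247, 238 and 232 against 287, 303 and 270, with no overlap (0.26, SE 0.10, limma adjusted p = 0.0951). Zeb1 was at 2332, 1924 and 1971 against 2205, 2111 and 2038 (0.03, 95% interval -0.15 to 0.22), and Zeb2 at 1051, 780 and 754 against 982, 1020 and 936 (0.20, SE 0.12), where control replicate 1 was the highest of all hearts. Without control replicate 1 Zeb2 was called, with a change of 0.35. Twist1 was at 106, 77 and 131 against 118, 110 and 136, and Twist2 at 12, 15 and 7 against 12, 13 and 20, the lowest of these genes (0.40, SE 0.36).

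**Figure D3:**
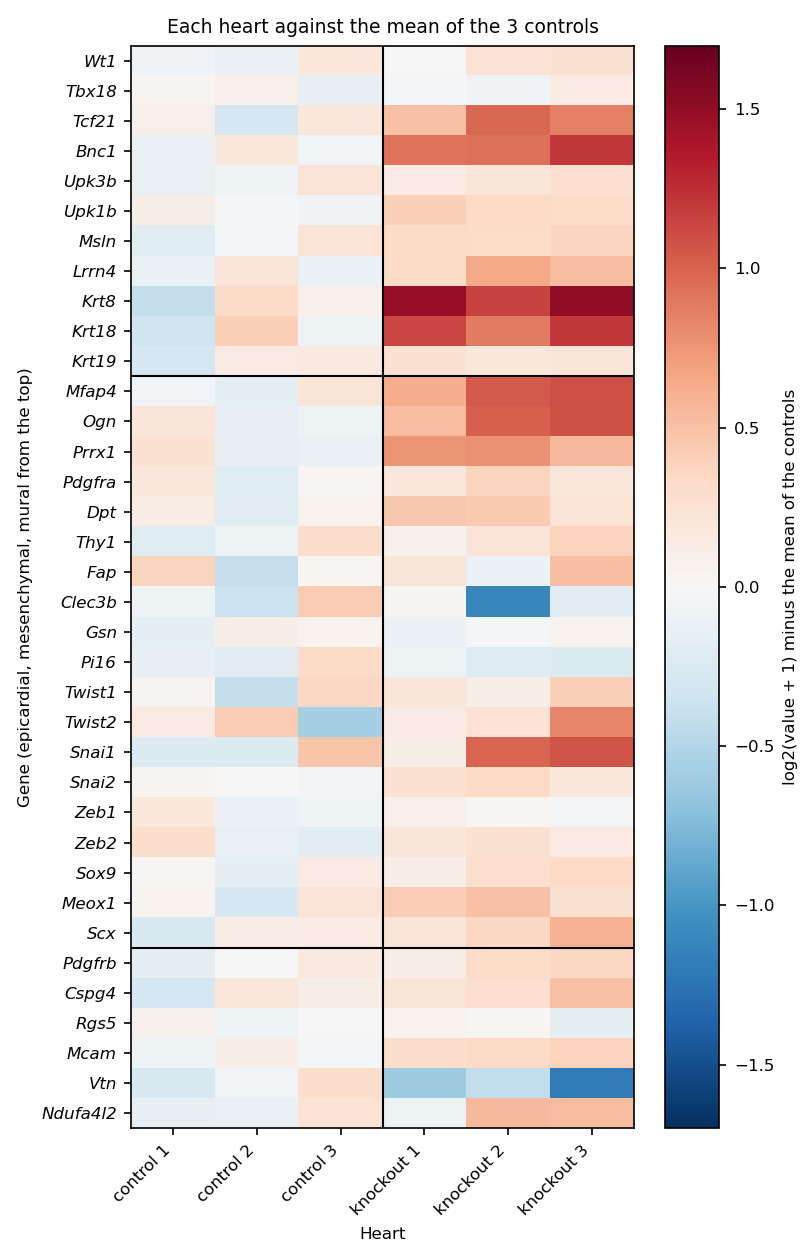
Each row is 1 of the 36 genes and each column 1 heart; colour gives log2(value + 1) minus the mean of the 3 controls, from -1.7 (blue) to 1.7 (red). Krt8, Krt18, Bnc1, Mfap4, Ogn and Tcf21 are red in all 3 knockouts, whereas Tbx18, Zeb1, Gsn and Rgs5 are near white throughout.

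Of the 6 mural genes 1 rose, 16.7% where 8.61% of all genes tested were called higher, and the estimates had both signs. Mcam, the adhesion molecule CD146 of pericytes and endothelium, was at 6636, 7512 and 6785 in control and 8587, 8717 and 9151 in knockout hearts. The groups were well apart, and Mcam rose by 0.34 (SE 0.07, limma adjusted p = 0.00854). Pdgfrb, the receptor by which mural cells are recruited to vessels, was at 1785, 1991 and 2197 against 2148, 2471 and 2529, with knockout replicate 1 below control replicate 3 (0.26, SE 0.09, limma adjusted p = 0.0789). Cspg4, the proteoglycan NG2, was at 2337, 3301 and 3090 against 3312, 3494 and 4083 (0.33, SE 0.12, limma adjusted p = 0.1). Control replicate 2 nearly reached knockout replicate 1, with no overlap. Rgs5, a regulator of G-protein signalling in pericytes, was at 2871, 2600 and 2713 against 2840, 2791 and 2426, a change of -0.02 (95% interval -0.20 to 0.15) whose sign turned with equal totals, with limma-voom, with embryo sex as a term, without control replicate 1 and without knockout replicate 3. Ndufa4l2, a mitochondrial protein gene of pericytes that also responds to hypoxia, was at 336, 344 and 440 against 350, 541 and 538 (0.33, SE 0.17, limma adjusted p = 0.215). Without knockout replicate 1 both Ndufa4l2 and Pdgfrb were called, which made 3 mural genes higher. Vtn, vitronectin, had the lowest values of the mural genes, at 18, 21 and 27 in control and 14, 16 and 9 in knockout hearts. It was the 1 gene of the 36 whose knockouts all lay below the controls, and it did not pass (-0.73, SE 0.31, limma adjusted p = 0.131).

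**Figure D4:**
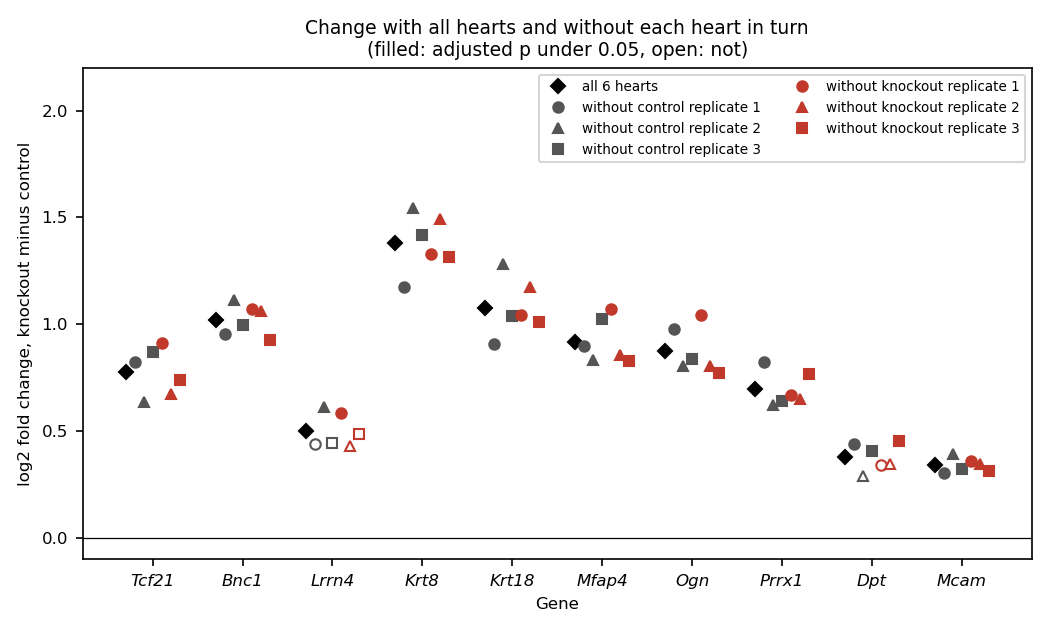
Log2 fold change (y axis) of the 10 genes past the threshold (x axis) with all 6 hearts (diamonds) and without each heart in turn; filled symbols are below an adjusted p of 0.05. Lrrn4 is open in 4 and Dpt in 3 of the 6 fits that leave out a heart, and the other 8 genes are filled in every fit.

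Across hearts, the median log2 distance of the 36 genes from the mean of the controls was -0.06, -0.09 and 0.09 in the 3 control hearts, against 0.20, 0.31 and 0.36 in the 3 knockout hearts. Knockout replicate 1 was the closest to the controls in the mesenchymal genes, at 0.20 against 0.28 and 0.33, and in the mural genes, at 0.09 against 0.30 and 0.37. In the epicardial genes the 3 knockouts were alike, at 0.33, 0.34 and 0.36. The summed value of the 12 epicardial genes was 4356 to 4771 in the controls and 5490 to 6124 in the knockouts, that of the 19 mesenchymal genes 17974 to 19169 and 21146 to 23106, and that of the 6 mural genes 13983 to 15769 and 17251 to 18736, so that none of the 3 sums overlapped between groups. Gsn and Mcam are the largest terms of the last 2 sums.

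Further markers of the same cells were read beside these genes. Over all genes tested, 8.61% were called higher and 8.56% lower. Of 11 other epicardial genes tested, 3 rose and 0 fell. The change was positive in 8 and negative in 3, with a median of 0.36. The negative ones were Efemp1, Dmkn and Anxa8, at -0.04, -0.19 and -0.02. Sema3d, a guidance ligand of the epicardium, was at 438, 407 and 407 in control and 651, 695 and 640 in knockout hearts, a rise of 0.66 (SE 0.08, limma adjusted p = 0.000941). Gpm6a, a membrane glycoprotein of neurons and mesothelium, rose by 0.72 (SE 0.13) and Itga4, the integrin subunit needed for attachment of the epicardium, by 0.57 (SE 0.17, limma adjusted p = 0.0429). The Itga4 call was lost without control replicate 2 or 3 and without knockout replicate 1 or 2 (0.45 to 0.60), and under 3 of the 9 other alternatives. Aldh1a2, the retinoic acid enzyme of the epicardium, was at 512, 327 and 499 against 536, 483 and 688 (0.36, SE 0.18, limma adjusted p = 0.196). Of 13 further fibroblast genes, 7 rose and 0 fell, with a median of 0.49. The examples with the smallest p were Mgp, an inhibitor of calcification, up by 0.97 (SE 0.09), Fstl1, a secreted glycoprotein, by 0.49 (SE 0.07), the collagen cross-linking enzyme gene Lox by 0.87 (SE 0.14) and the matrix gene Fbln2 by 0.68 (SE 0.11). Col1a1, Dcn, Lum, Ddr2, Fbln1 and Vim did not pass, at 0.24, 0.19, 0.23, 0.25, 0.33 and 0.23. Of 8 further pericyte genes 1 rose, the forkhead gene Foxs1 (0.79, SE 0.17), which is 12.5% and near the share over all genes. All 8 changes were positive, with a median of 0.26. Of 8 smooth muscle genes 4 fell and 0 rose, with a median of -0.38. Tagln, Mylk, Lmod1 and Myocd did not pass, at 0.20, 0.08, -0.07 and -0.25 (SE 0.16, 0.12, 0.44 and 0.12). Cnn1, Acta2, Myh11 and Smtn, which encode calponin, an actin, a myosin heavy chain and smoothelin, changed by -2.16, -1.74, -1.49 and -0.51 (SE 0.24, 0.13, 0.31 and 0.10). Embryonic cardiomyocytes express Acta2 and Cnn1 as well, so that Acta2 and Cnn1 do not single out mural cells in a whole heart. Myh11 was at 153, 106 and 141 in control and 80, 40 and 31 in knockout hearts (limma adjusted p = 0.00949). Which cells the fall of these 4 genes came from was not tested.

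The ligands of PDGFRA and PDGFRB did not pass in limma, 0 of 4, and 0 at an unadjusted p under 0.05. Pdgfa was at 1257, 1329 and 1266 in control and 1259, 1224 and 1403 in knockout hearts (0.01, SE 0.07), and Pdgfb at 635, 762 and 805 against 693, 713 and 808 (0.01, SE 0.10). Of 6 genes of cell junctions and EMT, 3 rose, namely Cdh11, a cadherin of mesenchyme, by 0.66 (SE 0.07), Fn1, fibronectin, by 0.74 (SE 0.11) and the matrix protease gene Mmp2 by 0.43 (SE 0.09), a call lost without knockout replicate 2 (0.40, limma adjusted p = 0.0539). Over all genes tested, 8.61% were called higher. Cdh2, the cadherin of cardiomyocytes and mesenchyme, changed by -0.09 (SE 0.07) and the tight junction gene Tjp1 by -0.16 (SE 0.08), and neither passed. Ocln, the tight junction gene occludin, was at 53, 21 and 30 in control and 61, 59 and 71 in knockout hearts, with no overlap, and did not pass (0.95, SE 0.30, limma adjusted p = 0.0525). The epithelial genes Cdh1 and Epcam were below the minimum, at 3 to 12 and 0 to 4.

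Markers of other cells differed between the same hearts, where 8.61% of all genes tested were called higher and 8.56% lower. Of 12 cardiomyocyte genes 2 fell, Myh6 by 1.53 (SE 0.11) and Actn2 by 0.31 (SE 0.08), the median was -0.17, and the summed value was 893287 to 927592 in the controls and 748633 to 809843 in the knockouts. The Actn2 call was kept without control replicate 1, and lost without each of the other 5 hearts (limma adjusted p = 0.0524 to 0.0836) and with no filter. Of 10 endothelial and endocardial genes 6 rose, with a median of 0.31 and sums of 21811 to 22426 and 25519 to 28142. The 4 with the smallest p were Emcn and Npr3, up by 0.91 (SE 0.06) and 0.95 (SE 0.07), Tek by 0.43 (SE 0.08) and Tie1 by 0.36 (SE 0.08). The count of 6 was 3 without knockout replicate 2, where Tie1 was among those lost (limma adjusted p = 0.0503), and 4 without knockout replicate 3. Of 9 macrophage genes 7 rose, with a median of 0.82 and sums of 1678 to 1903 and 2441 to 3515, led by Csf1r, up by 0.82 (SE 0.13), C1qa, by 0.95 (SE 0.17), Adgre1, by 0.92 (SE 0.17), and C1qc, by 0.90 (SE 0.17). Knockout replicate 1 had the lowest macrophage sum of the knockouts. Of 8 erythroid genes none passed in limma (with no adjustment, 5 lower and 1 higher had a p under 0.05). However, 3 fell without control replicate 1 and 3 without knockout replicate 3, and 1 rose without knockout replicate 1 and 1 without knockout replicate 3. For this list the sums were 37957 to 66152 in the controls and 30569 to 37882 in the knockouts. Hbb-bs, an adult beta-globin gene, was at 18235, 19253 and 31898 against 17643, 15784 and 18630 (-0.37, SE 0.18). The embryonic globin genes Hbb-y and Hba-x had the other sign, at 0.68 (SE 0.22) and 0.63 (SE 0.33), and did not pass (limma adjusted p = 0.0595 and 0.228). Of the 3 Schwann and neural crest genes tested none passed in limma, and none did at an unadjusted p under 0.05. The part of these other cells in the changes of the 36 genes was not tested.

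**Figure D5:**
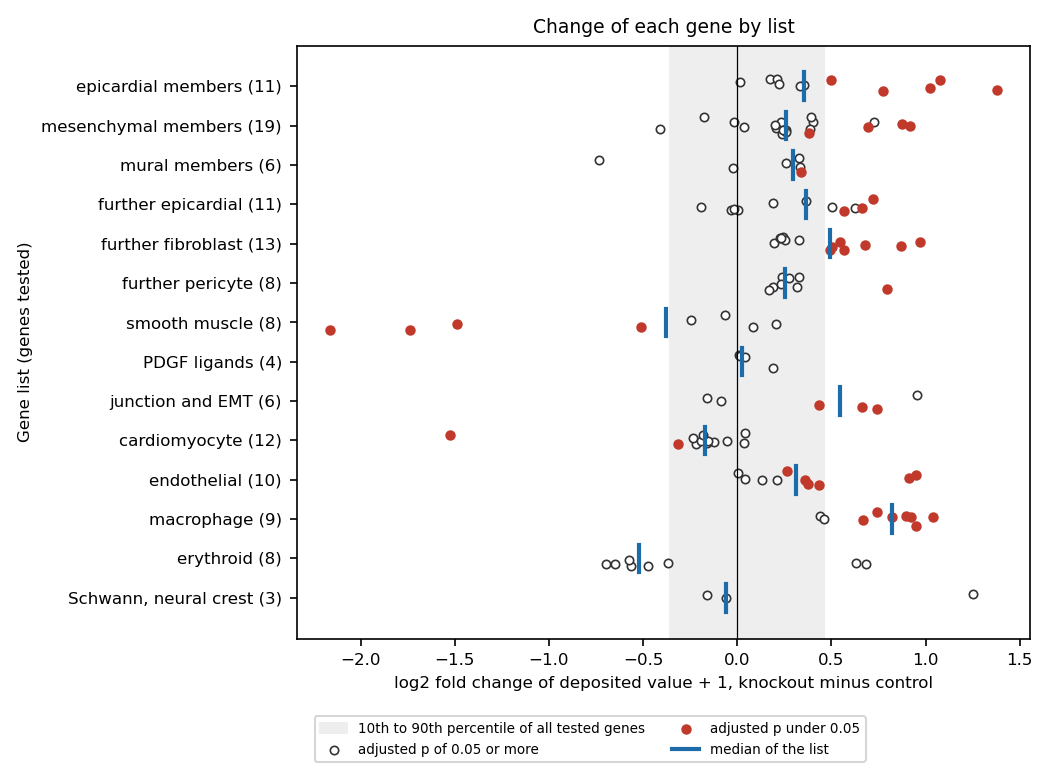
Log2 fold change of each tested gene (x axis) by list (y axis, with the number of genes tested); red points passed an adjusted p of 0.05, blue lines are list medians, and the grey band spans the 10th to 90th percentile of all tested genes, -0.36 to 0.46. The macrophage genes have the highest median, 0.82, and the smooth muscle genes reach the lowest value, -2.16.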

How the data were processed

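Poly(A) RNA of 3 control and 3 knockout hearts was sequenced from stranded, paired-end libraries, per the labels; groups and replicate numbers come from the sample titles. The tools named are STAR 2.4.2a, featureCounts 1.5.0, Trimmomatic, DESeq and DESeq2, with build mm10, per the submitters' processing notes; their roles, and whether counting used strand, are not given in the sources used here, so reads of overlapping antisense genes may be included. The deposited values are treated as a score. The values themselves show that the authors divided reads per gene by a constant for each sample, then rounded; no header names a unit. Factors were fitted to the frequencies of values from 4 to 150, and the fit was checked on simulated data. No count test applies to such values. R 4.3.3 and limma 3.58.1 (variance allowed to follow abundance) were applied to log2(value + 1) of the genes whose mean was at least 10, with the group as the only term, and adjusted by the Benjamini-Hochberg method. The fit was also run on simulated data whose dispersion was set the same for all genes, so that run does not give the error rate in these hearts. Fold changes understate those of low genes.

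The genes, their subgroups, the other lists and the alternatives were chosen with earlier results of these data known. Every gene of the 37 is named; of other lists, the up to 4 called genes of smallest p are named, or up to 2 where none was called. Further genes named as values, the keratin and neighbour sets, the ratios and the Krt18 promoter were added after their values were seen. Alternatives were pseudocounts of 0.1 and 10, no filter, a mean of at least 50, the replicate number as a block, equal totals and quantile normalization. The rest were limma-voom on estimated reads, embryo sex read from Y-linked genes as a term, and leaving out each heart. Coordinates and exon lengths (the union of all exons) are from GENCODE M21, in which 45143 of 45706 identifiers were found. RefSeq promoters were given for 21 of the 36 genes. All replicate pairs within a group differed beyond sampling noise. Python 3.11.15 with matplotlib 3.10.9, numpy 2.4.6 and pandas 2.3.3 made the tables and figures. Low values carry counting error that the scale does not show.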

Additional observations from a re-analysis of the deposited data

How the results depend on the processing

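The 5 epicardial and 4 mesenchymal genes that rose numbered 4 to 6 and 3 to 6 without each heart in turn, and 0 fell in any fit. The mural count of 1 was 3 with the replicate block, 2 with equal totals and 1 to 3 without each heart in turn. Over all genes, 1339 were higher and 1331 lower; 846 were higher with no filter, and without each heart in turn 614 to 1237 were higher and 691 to 1225 lower, with the lowest counts of 614 and 691 without knockout replicate 2; 880 and 789 were higher and lower without control replicate 3, and 876 were higher without knockout replicate 3. The other lists together held 27 genes that rose (21 to 29 leaving out 1 heart at a time) and 6 that fell (11 with the replicate block, 5 to 9 leaving out 1 heart at a time). Signs turned only for genes near 0 among the 36: Tbx18 was -0.0239 with embryo sex as a term and -0.0525 to 0.0612 without each heart in turn; Gsn was 0.0115 with equal totals, 0.0111 with limma-voom and -0.0987 to 0.0284 without each heart; Rgs5 was 0.0058 with equal totals, 0.0065 with limma-voom, 0.0069 with the sex term and -0.0669 to 0.0467 without each heart; and Zeb1 was -0.0183 to 0.1204 without each heart. The causes were not tested. Rbpms stayed between -2.83 and -2.34 and Rbpms2 between -0.99 and -0.72 without each heart, with both called in every fit. Same-numbered hearts did not deviate together over all genes tested (r = -0.04, -0.37 and 0.05 for numbers 1 to 3). Taken from deviations about means of 3 hearts, these r values cannot tell whether such hearts were matched, for example by litter. The replicate block added calls for Msln, Meox1, Snai1, Pdgfrb and Cspg4 and removed none of the 10. Scaling moved the median of all genes by at most 0.031. With 3 hearts a group, changes of about 3 standard errors did not always pass, as in Upk1b (0.35, SE 0.11) and Meox1 (0.39, SE 0.12), and control replicate 3, the shallowest library, has the coarsest low values, which bears on Twist2, Vtn and Bnc2.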
